A study of Mus musculus with 9 samples.

Results

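Direct lysis was compared with PicoPure column purification as ways of getting RNA from 1 mouse oocyte onto an expression array. The comparison used the 6 arrays titled as direct lysis or PicoPure, 3 of each, out of 9 arrays in the series. The other 3 arrays, prepared with Qiagen RNeasy Mini columns, entered the fit and are set beside single genes. The genes were the 19938 whose array row carried exactly 1 gene symbol, with the row of the highest mean over the 9 arrays used where a gene had several rows.

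All 9 oocytes were unfertilized cells at metaphase II from females of the outbred ICR strain, aged 2 months. All females were given PMSG (10 IU), a hormone that ripens follicles, and hCG (10 IU), which triggers ovulation, with 46 hours between them, and the labels name no genetic modification. In the PicoPure group the RNA of an oocyte was bound to and eluted from an Arcturus PicoPure column. In the direct lysis group the oocyte was opened in NuGEN lysis buffer and the crude lysate was used with no purification. Amplification with NuGEN Ovation One-Direct chemistry was common to every sample, which was then biotinylated and hybridised to an Affymetrix Mouse Gene 1.0 ST array, which reads each transcript with many probes along its length. The cells came from 3 mice per condition, 1 to 3 cells from each, and the labels do not tie an oocyte to its mouse. Oocytes of a group may therefore share a mouse, and p-values are set against the spread from oocyte to oocyte only. Values are the authors' normalized expression values, read as log2 from their range of 2.41 to 13.9, so a difference of 1 stands for 2-fold.

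The metaphase II oocyte is arrested in its last meiotic division and makes almost no new RNA. It lives on messages stored during growth, which are held with short poly(A) tails and are lengthened and translated, or shortened and destroyed, on a schedule. The arrest is held by Cdk1 with its cyclins and small Cks partners, and by the Emi2 protein, encoded by Fbxo43, which restrains the anaphase-promoting complex.

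The 6 arrays were alike in their overall level. Their background was set at the 95th percentile of 1233 olfactory, vomeronasal and taste receptor genes on the same array and lay between 7.19 and 7.29. This level serves as a guide to what is measurable and carries no detection p-value. On all 6 arrays 9412 genes exceeded it, and 7160 genes exceeded it nowhere. Array-to-array correlations across genes, which are not independent replicates, were 0.968 to 0.973 among direct lysis oocytes, 0.976 to 0.981 among PicoPure oocytes and 0.965 to 0.973 between the groups. Arrays have no sequencing depth, and precision is limited by having 3 arrays a group.

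The labelled cell type was borne out by the oocyte's own genes in both preparations. Bmp15, an oocyte growth factor, measured 12.86, 12.94 and 12.89 on the direct lysis arrays and 12.82, 12.83 and 12.84 on the PicoPure arrays. Its relative Gdf9 measured 12.66, 12.63 and 12.69 against 12.68, 12.80 and 12.68. The zona pellucida gene Zp3 measured 11.48, 11.66 and 11.54 against 11.75, 11.63 and 11.72, and the groups overlapped for both Gdf9 and Zp3. Zp1 was 0.18 ± 0.07 (SE) higher in direct lysis and Zp2 0.06 ± 0.07 higher, with adjusted p of 0.316 and 0.767. Nlrp5 of the subcortical maternal complex, the oocyte nucleoplasmin Npm2 and the maternal factor Dppa3 differed by 0.10 ± 0.08, 0.05 ± 0.08 and 0.09 ± 0.08, none past the threshold. The kinase gene Mos differed by -0.24 ± 0.27 and the deadenylase cofactor Btg4 by -0.20 ± 0.07, with adjusted p of 0.75 and 0.296. The cytoskeletal gene Actb differed by 0.03 ± 0.14. All 26 maternal effect genes measured lay above background on all 6 arrays, as did 8 of 9 zona and growth factor genes and 40 of 43 oocyte-specific genes. The test was passed by 0 genes of these lists, and by 0.597% of all genes, so 0 calls does not set lists of these sizes apart. Of the 43 oocyte-specific genes, 16 had an unadjusted p under 0.05, 15 of them lower in direct lysis. Such a p was found in 12.3% of all genes, and 5.91% were lower with it. Of the 9412 genes above background on all 6 arrays, 1371 had such a p, 882 of them lower. The median difference of this list was -0.08. Tcl1b4, an oocyte-enriched gene of the Tcl1 family, measured 10.45, 8.72 and 8.59 in direct lysis and 11.55, 11.82 and 11.95 in PicoPure, with the direct lysis oocytes all lower and far more spread. Its difference of -2.52 ± 0.44 missed the threshold at an adjusted p of 0.0603, and passed without direct lysis replicate 1 (0.000971) or when only genes above background were tested (0.0426). Omt2a, an oocyte maturation gene, measured 11.41, 10.78 and 10.63 against 11.78, 11.75 and 11.78, at -0.83 ± 0.18 with an adjusted p of 0.11, and 0.00701 without direct lysis replicate 1.

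Direct lysis gave lower values than PicoPure for a set of well-expressed messages and higher values for a smaller set of dim rows. In limma's fit over all 9 arrays, 85 genes were lower in direct lysis and 34 were higher at an adjusted p under 0.05. These 119 genes are 0.597% of the genes tested, with 0.426% lower and 0.171% higher. The lower genes had a median difference of -1.08, and 48 of them differed by 2-fold or more. The higher genes had a median difference of 0.74, and 9 reached 2-fold. Over all genes the median difference was 0.01. The arrays of the groups did not overlap for any of the 119 genes, while 3311 of all genes, or 16.6%, showed no overlap, with direct lysis below PicoPure in 7.67% and above it in 8.94%. In the same fit direct lysis and RNeasy differed in 0.436% of genes, and PicoPure and RNeasy in 0.0602%. Both of these contrasts share arrays with the comparison of direct lysis and PicoPure, and are used only gene by gene.

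These counts depend on the spread shared with the RNeasy arrays. When the 6 arrays were fitted alone, limma called 0 genes, with 2158 genes at an unadjusted p under 0.05 against 2448 in the fit over 9 arrays, and the smallest adjusted p was 0.0524. All 119 genes had an unadjusted p under 0.05 in that fit. This is no separate check, since the genes were selected on the same 6 arrays and their differences are the same in both fits. Leaving out PicoPure replicate 2 left 14 genes past the threshold, and leaving out PicoPure replicate 1 or 3 left 30 and 44. Without RNeasy replicate 1, 2 or 3 there were 33, 40 and 34 calls, and without direct lysis replicate 1, 2 or 3 there were 123, 86 and 80. A further quantile normalization called 31 genes higher and 42 lower, which moved the share of higher calls from 28.6% to 42.5%. In none of the alternatives did a called gene change its direction. Leaving out an array or refitting the same values could not have changed it, because the groups did not overlap for any called gene.

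**Figure D1:**
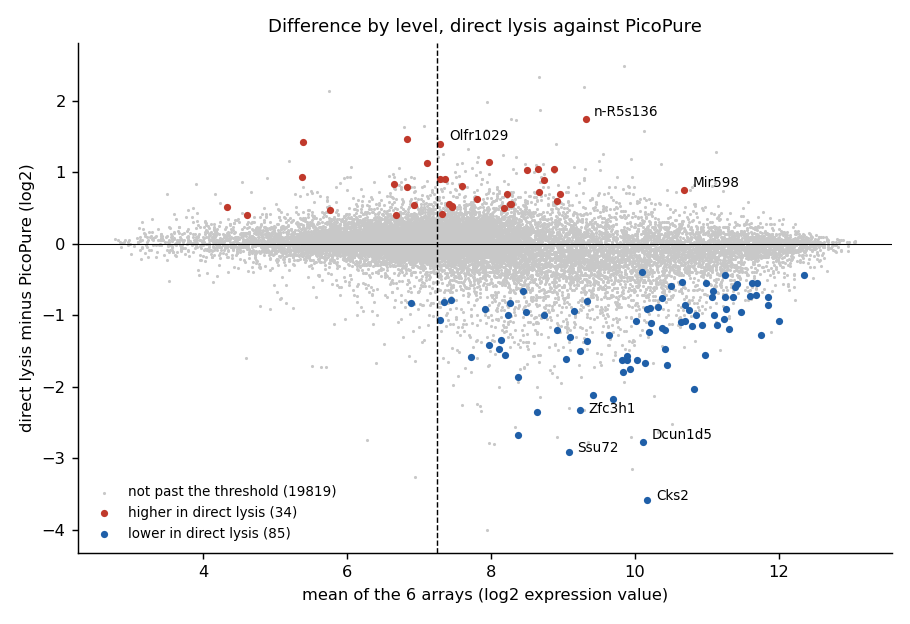
Difference between direct lysis and PicoPure (vertical axis, log2) against the mean of the 6 arrays (horizontal axis, log2 expression value) for 19938 genes; the dashed line is the mean background. The 85 lower genes in blue lie mostly to the right of background, and the 34 higher genes in red lie mostly near or left of it.

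Higher and lower calls sat at different levels of expression. Among 8720 genes whose mean lay under background, 11 were higher and 1 was lower. Between background and 9, 21 of 6643 genes were higher and 18 were lower. Between 9 and 11, 44 of 2963 genes were lower, or 1.48%, and 2 were higher. Above 11, 22 of 1612 genes were lower, or 1.36%, and 0 were higher. The median difference of all genes was 0.04 under background and -0.13 between 9 and 11. Of the 85 lower genes, 84 exceeded background in every PicoPure oocyte and 72 still did in every direct lysis oocyte, so most were reduced and still measurable in the crude lysate.

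Cks2, a small subunit that binds Cdk1 and is needed for germ cells to pass meiosis, showed the largest decrease among the called genes. It measured 9.29, 7.61 and 8.23 in direct lysis and 12.02, 11.94 and 11.93 in PicoPure. The 3 PicoPure oocytes lay within 0.1 of each other, while the direct lysis oocytes were spread out and all far below them. The difference was -3.59 ± 0.35 (SE), or 12-fold, with an adjusted p of 0.0104 in limma. Against RNeasy, where Cks2 measured 12.05, 12.08 and 11.98, direct lysis was lower by a log2 difference of -3.66 (adjusted p 0.0129). The gene has 3 rows on the array, and they differed by -3.59, -3.73 and -3.41. The call was lost without PicoPure replicate 1 (adjusted p 0.0514) or 2 (0.0578), though the differences stayed at -3.56 and -3.60. It was kept without PicoPure replicate 3 (0.0359) and lost in the fit on the 6 arrays alone (0.107).

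Dcun1d5, which helps attach the ubiquitin-like protein Nedd8 to cullins, fell almost as far with a smaller error. It measured 8.69, 8.27 and 9.19 in direct lysis against 11.53, 11.45 and 11.52 in PicoPure. The decrease was -2.78 ± 0.20, or 6.88-fold, with an adjusted p of 0.00497, and direct lysis minus RNeasy was -2.83. Of 68 cullin, neddylation and ubiquitin-conjugating genes it was the only member to pass the test, and the median difference of the list was 0.00. Rnf7, the RING subunit that works with cullins, measured 5.51, 7.2 and 5.12 in direct lysis and 11.04, 9.61 and 9.19 in PicoPure. Its direct lysis oocytes were all under background and its PicoPure oocytes all above it, a difference of at least 6.44-fold against the background level. With a wide spread on both sides its adjusted p was 0.0894 and it did not pass. Uba3, a subunit of the Nedd8-activating enzyme, differed by -0.65 ± 0.14, and its adjusted p was 0.109.

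Ssu72, Zfc3h1 and Casp8ap2 were also among the 15 largest decreases. Ssu72, a phosphatase of the RNA polymerase II tail, measured 8.59, 7.22 and 7.05 in direct lysis and 10.63, 10.34 and 10.65 in PicoPure. Only 1 of the 3 direct lysis oocytes lay above background, and the decrease was -2.92 ± 0.38 with an adjusted p of 0.0254. The call was lost on leaving out any array except direct lysis replicate 1, with adjusted p up to 0.106 without PicoPure replicate 1. Zfc3h1, a zinc finger protein that links nuclear poly(A) RNA to the exosome, measured 8.40, 8.08 and 7.73 against 10.36, 10.58 and 10.26. The PicoPure and direct lysis oocytes were each tight, and the decrease was -2.32 ± 0.17 with an adjusted p of 0.00497. Its RNeasy oocytes lay between the groups at 9.20, 9.42 and 9.16. Casp8ap2, known as FLASH and needed to process histone messages, measured 10.24, 9.67 and 9.49 against 11.82, 11.88 and 11.80. Its decrease was -2.03 ± 0.19 with an adjusted p of 0.0104, and 0.0537 without PicoPure replicate 2.

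Leprot, which encodes a small endosomal membrane protein, was under background in every direct lysis oocyte, at 6.97, 6.96 and 7.19. In PicoPure it measured 10.03, 8.82 and 10.28, and in RNeasy 10.58, 9.81 and 10.82. The decrease from PicoPure was at least 5.46-fold against the background level, with an adjusted p of 0.0366, which rose above the threshold on leaving out any array but PicoPure replicate 2 (to 0.144 without PicoPure replicate 1). Timm21, a part of the mitochondrial inner membrane import channel, measured 7.84, 7.10 and 7.45 against 9.89, 10.32 and 9.21. It fell by 2.35 on the log2 scale with an adjusted p of 0.0227, and was the only called gene of 28 mitochondrial import genes, whose median difference was -0.04. Timm17b of the same channel differed by -1.36 ± 0.32, with 0.134 as its adjusted p and 0.0188 without PicoPure replicate 3, and the intermembrane chaperone gene Timm13 by 0.41 ± 0.12 with an adjusted p of 0.209. The Timm21 call was kept without direct lysis replicate 1 or PicoPure replicate 3 and lost without any other array, with adjusted p up to 0.0932 without PicoPure replicate 1.

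Il7 and Ccp110 showed decreases with little spread on either side. Il7, a cytokine gene, measured 8.71, 9.07 and 9.0 against 10.99, 10.57 and 10.64, a decrease of -1.80 ± 0.14 with an adjusted p of 0.00552. Ccp110, whose product caps centrioles, measured 9.35, 9.19 and 9.11 against 10.88, 10.74 and 10.91. Its decrease was -1.63 ± 0.10 with an adjusted p of 0.00497. Ccp110, Dcun1d5, Il7 and Zfc3h1 are among 9 genes whose call was lost in no alternative except the fit on the 6 arrays alone.

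The remaining genes among the 15 largest decreases differed by -2.17 to -1.67. That the groups do not overlap was a condition for being among these 15, so it is no result. They were the germ cell-less homologue Gmcl1 (-2.17 ± 0.27), the cyclic AMP phosphodiesterase Pde8a (-2.11 ± 0.25), the CCCH zinc finger gene Zc3h6 (-1.86 ± 0.27), the lactosamine-chain enzyme B3gnt2 (-1.75 ± 0.24), the DAZ-associated gene Dazap2 (-1.69 ± 0.23) and the condensin II subunit Ncapg2 (-1.67 ± 0.22). Their adjusted p ran from 0.0217 to 0.0323. Each lost its call on leaving out several of the arrays, PicoPure replicate 2 among them. The second row of Zc3h6 differed by only -0.31, at an adjusted p of 0.519 in limma's fit over all rows. The mean of its rows did not keep the call, so the rows of this gene disagree. Against RNeasy the same genes differed by -2.47, -1.53, -1.94, -1.82, -1.40 and -1.38.

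**Figure D2:**
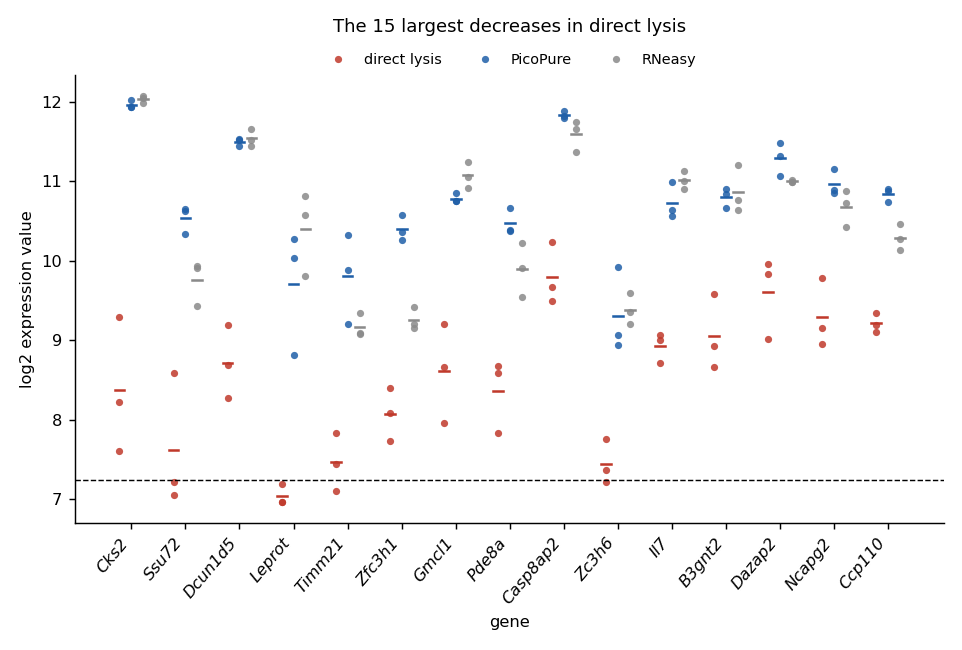
Log2 expression value of the 15 called genes with the largest decreases in direct lysis (red, 3 oocytes), beside PicoPure (blue, 3) and RNeasy (grey, 3); points are oocytes, bars are group means and the dashed line is the mean background. For each gene all PicoPure points lie above all direct lysis points, which the choice of genes required. Leprot lies under background in all 3 direct lysis oocytes.

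Regulators of the metaphase II arrest were represented beyond Cks2. Of 43 genes for Cdk1, cyclins, the anaphase-promoting complex and their regulators, 3 passed the test and all were lower, while the median difference of the list was -0.09. Fbxo43, which encodes Emi2, measured 11.40, 11.85 and 11.11 in direct lysis and 12.57, 12.54 and 12.49 in PicoPure. The groups did not overlap, and the decrease was -1.08 ± 0.17 with an adjusted p of 0.0486. Cdc20, the co-activator that the anaphase-promoting complex uses at metaphase, measured 9.30, 8.58 and 9.14 against 10.48, 10.19 and 10.15. Its decrease was -1.27 ± 0.20, also at an adjusted p of 0.0486. Both sat at the edge of the threshold: without PicoPure replicate 1 the adjusted p was 0.162 for each, Fbxo43 kept its call only without direct lysis replicate 2, and Cdc20 only without direct lysis replicate 1.

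Maternal messages that are recruited for translation during maturation were 20 genes, of which 15 had a negative difference and 3 were called lower. Their median difference of -0.21 was the lowest of the lists, and 10 of the 20 had an unadjusted p under 0.05, 9 of them lower, against 12.3% of all genes. All 20 exceeded background on all 6 arrays. Of the 9412 genes that did so, 5148 had a negative difference and 1371 had such a p, 882 of them lower. Plat, tissue plasminogen activator, whose stored message is lengthened and translated in the maturing oocyte, measured 12.09, 12.15 and 12.13 in direct lysis and 12.60, 12.46 and 12.62 in PicoPure. Its decrease was small and tight, -0.43 ± 0.07 with an adjusted p of 0.0417, and the call was lost on leaving out any of the 9 arrays, with adjusted p between 0.0713 and 0.147. The other called members were Cdc20 and Fbxo43, which this list shares with the cell cycle list.

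Among 38 genes for cytoplasmic polyadenylation and message storage, Tent2 alone passed. Tent2, the Gld2 poly(A) polymerase, measured 9.50, 8.47 and 9.29 against 10.66, 10.61 and 10.84, a decrease of -1.62 ± 0.24 with an adjusted p of 0.035. Its second row on the array differed by -1.16. The call was kept only without direct lysis replicate 1 or 2, with adjusted p up to 0.123 without PicoPure replicate 1 or 2. Khdrbs1, an RNA-binding protein, differed by -0.82 ± 0.18 and did not pass at 0.106, while its other row, tested among all rows of the array, differed by -1.52 at an adjusted p of 0.0357. Pabpn1, the nuclear poly(A)-binding protein, differed by -0.49 ± 0.12 (adjusted p 0.154). The list's median difference was 0.00.

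The genes that shorten and destroy messages showed 0 calls among 47, which does not set them apart where 0.597% of all genes were called. Their median difference was -0.05. An unadjusted p under 0.05 was found in 10 members, 7 of them lower. Of all genes 12.3% had such a p and 5.91% were lower with it. On all 6 arrays 44 members exceeded background, and of the 9412 genes that did so 1371 had such a p, 882 of them lower. Cnot8, a catalytic deadenylase, measured 8.19, 10.55 and 8.24 in direct lysis and 11.61, 11.50 and 11.80 in PicoPure. Although the groups did not overlap, direct lysis replicate 2 lay far above the others of its group, and the difference of -2.64 ± 0.56 had an adjusted p of 0.105, and 0.000358 at -3.42 without that oocyte. The deadenylase subunit Pan2 differed by -1.52 ± 0.28 and Cnot7, the paralogue of Cnot8, by -0.32 ± 0.07, with adjusted p of 0.0723 and 0.125. Without direct lysis replicate 1, Pan2 passed at 0.0144.

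Of 49 spindle, checkpoint and cohesin genes, 37 had a negative difference, their median was -0.15, and Cep192 was the only call. On all 6 arrays 44 of them exceeded background, and of the 9412 genes that did so 5148 were negative. The median of all genes was -0.13 between levels of 9 and 11 and -0.04 above 11. The list's array medians, 10.86 to 10.97 in direct lysis and 10.89 to 10.94 in PicoPure, lay near the border of these ranges. Neither range alone is therefore a reference for the list. Cep192, a scaffold of the spindle poles, measured 8.60, 8.50 and 8.22 against 9.57, 9.95 and 9.71. Its decrease was -1.31 ± 0.14 with an adjusted p of 0.0124. Its other rows differed by -0.73 and -0.87 and did not pass, and the mean of its 3 rows gave an adjusted p of 0.406, so the rows of this gene disagree. Without PicoPure replicate 2 the adjusted p was 0.0578. The kinesin Kif20a and the spindle assembly factor Tpx2 differed by -0.49 ± 0.11 and -0.27 ± 0.07, with adjusted p of 0.112 and 0.178.

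Core expression machinery contributed single genes. Eif4g2, a translation initiation factor that works without binding the cap-binding protein, measured 10.89, 10.78 and 10.75 in direct lysis and 11.76, 11.72 and 11.69 in PicoPure. The decrease of -0.91 ± 0.06 had an adjusted p of 0.00497, among the lowest of the comparison, and was lost only in the fit on the 6 arrays. It was 1 of 49 initiation genes, whose median was -0.06. Hnrnph1, a splicing regulator, measured 11.43, 11.36 and 11.47 against 12, 11.97 and 11.94, a decrease of -0.55 ± 0.06 with an adjusted p of 0.0143, and 0.0872 without PicoPure replicate 2. The call was also lost without PicoPure replicate 1 or 3, at 0.0657 and 0.0531. It was 1 of 61 splicing genes, with a list median of -0.06, and Ssu72 was 1 of 71 genes of the RNA polymerase II list, with a median of -0.11.

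Lists of ribosomal proteins, the proteasome, chaperones and the respiratory chain gave 0 calls. With 0.597% of all genes called, 0 calls does not set a list of this size apart. The 60 cytosolic ribosomal protein genes had a median difference of 0.06, the 77 mitochondrial ribosomal protein genes 0.00, the 50 proteasome genes 0.05, the 79 chaperone genes 0.02 and the 82 nuclear-encoded respiratory chain genes -0.07. Single members moved far without passing. Rps9, of the small ribosomal subunit, measured 9.37, 8.88 and 10.60 in direct lysis and 7.71, 7.65 and 7.90 in PicoPure, an adjusted p of 0.126 at a difference of 1.87 ± 0.43, and its RNeasy oocytes were higher than both at 10.46, 10.61 and 11.47. The second row of Rps9 differed by only 0.30, at an adjusted p of 0.844 over all rows, so its rows disagree. Rps25, on the other side, differed by -0.83 ± 0.20 with an adjusted p of 0.134, and all 6 of its rows were negative. Cox6b1 of the respiratory chain differed by -1.01 ± 0.20 with an adjusted p of 0.0924, and 0.0136 without direct lysis replicate 2, and Psmb6 of the proteasome by -1.54 ± 0.41 with an adjusted p of 0.182. The mitochondrially encoded genes ND3 and COX2 differed by -0.07 ± 0.11 and -0.03 ± 0.09. The 14 genes often used as references had a median of -0.01 and 0 calls, with Hprt at -0.40 ± 0.17 and Ppia at 0.93 ± 0.56, the latter set by PicoPure replicate 3, which read 8.09 against 10.26 and 10.13.

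**Figure D3:**
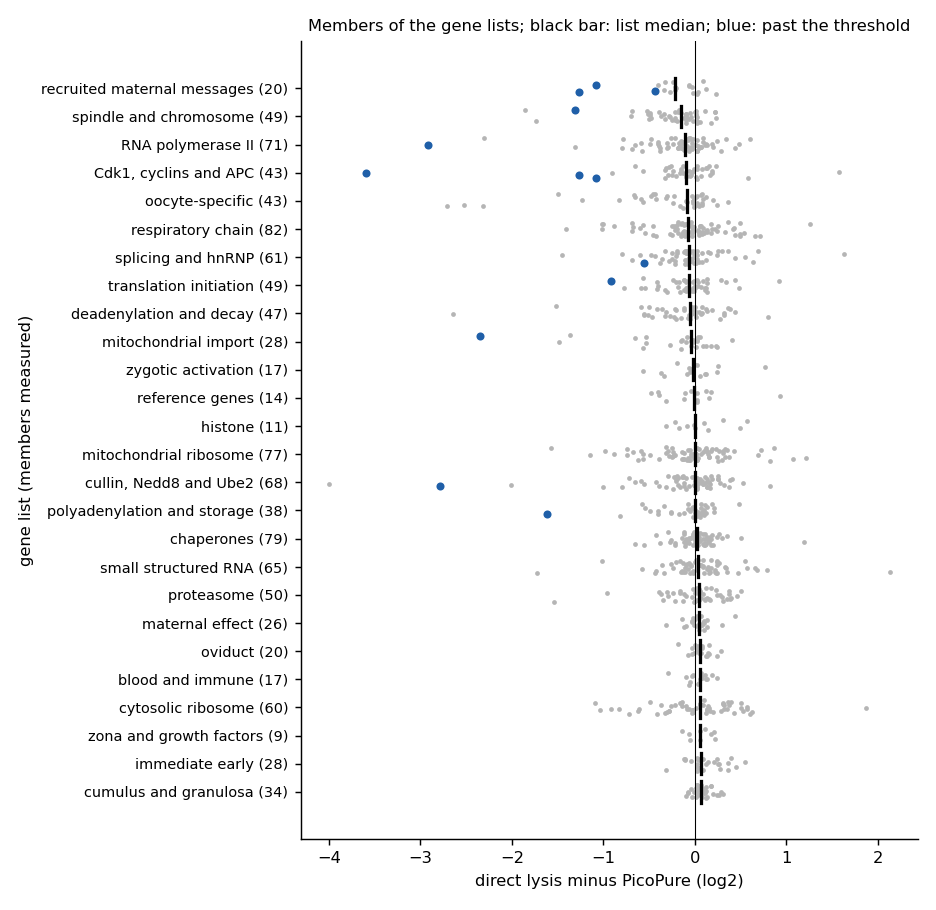
Difference between direct lysis and PicoPure (horizontal axis, log2) for each measured member of 26 gene lists, with the list median as a black bar and members past the threshold in blue. Every blue point lies left of 0, and the list medians run from -0.21 for recruited maternal messages to 0.07. Lists not drawn include the microRNA genes (8 higher calls) and the sensory receptor genes (1 higher, 1 lower). The keratin, skin and milk protein list (0 calls, median 0.08) is also not drawn.

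The genes that were higher in direct lysis included microRNA genes, and those that were lower did not. By their RefSeq type, 83 of the 85 lower genes were protein-coding and 2 were pseudogenes. Protein-coding genes were 97.6% of the lower genes, near their share of 93.1% of all genes, and 67.6% of the higher genes. Of the 34 higher genes, 23 were protein-coding, 8 were microRNA genes, 2 were long noncoding RNA genes and 1 was a ribosomal RNA gene. Long noncoding RNA genes were 5.88% of the higher genes and 3.39% of all genes. MicroRNA genes made up 23.5% of the higher genes and 1.49% of all genes. Of the 34, 24 were above background on all direct lysis arrays, 17 on no PicoPure array and 7 on none of the 6 arrays. For those 7 genes no fold is given, since both groups lay in the range of the background.

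The gene with the largest increase, n-R5s136, encodes the 5S ribosomal RNA, a short RNA of the large ribosomal subunit that has no poly(A) tail. It measured 10.02, 10.34 and 10.19 in direct lysis and 8.27, 8.39 and 8.67 in PicoPure. The increase was 1.74 ± 0.17, or 3.33-fold, with an adjusted p of 0.0104, and 0.0578 without PicoPure replicate 2. RNeasy oocytes read 10.38, 10.00 and 10.57, so direct lysis minus RNeasy was only -0.13 (adjusted p 0.747), and the PicoPure oocytes stood below both. The 5S genes exist in near-identical copies, so the value cannot be assigned to a single copy. The other small structured RNA genes, 65 small nuclear, nucleolar and related genes, gave 0 calls with a median of 0.04, and 46 of them were above background on no array.

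MicroRNA precursor genes gave 8 of the 34 increases and 0 decreases. Of 296 microRNA precursor genes taken by symbol, without host genes, 194 had a positive difference and 102 a negative one. Of all 19938 genes, 10621 were positive. The microRNA median was 0.06 against 0.01 for all genes, and 212 of them were above background on no array. All genes with a mean under background had a median of 0.04, with 11 higher calls and 1 lower. Other lists with many dim members had medians of 0.02 (sensory receptors), 0.04 (small structured RNAs), 0.07 (cumulus and granulosa) and 0.08 (keratin, skin and milk). A median shift of this size was therefore not particular to microRNA genes. Mature microRNAs are short RNAs cut from a hairpin, and bases 2 to 8, the seed, pair with target messages. The array rows carry the name of the precursor gene, and whether the hairpin, its host transcript or the mature RNA was read was not tested. Mature sequences from RefSeq (GRCm38.p6) were found for 7 of the 8 genes. They are shown for the called genes that were above background in direct lysis and for Mir382, which had the smallest adjusted p of the 8 although it lay under background on all 6 arrays, so that their seeds can be compared. The seed is in capitals:
mmu-miR-99b-5p: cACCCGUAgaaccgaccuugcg
mmu-miR-99b-3p: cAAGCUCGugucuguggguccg
mmu-miR-341-5p: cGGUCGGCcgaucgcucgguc
mmu-miR-341-3p: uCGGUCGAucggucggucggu
mmu-miR-181a-5p: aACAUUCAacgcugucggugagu
mmu-miR-181a-2-3p: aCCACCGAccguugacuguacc
mmu-miR-382-5p: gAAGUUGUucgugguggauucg
mmu-miR-382-3p: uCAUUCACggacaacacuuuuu

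The 14 mature sequences of the 7 genes held 14 different seeds, so no seed was shared. Hairpins were found for 6 of the genes, 66 to 99 bases long with a GC content of 39.5% to 59.4%. Their median length was 76.0 bases against 85 for the 258 measured microRNA genes with a hairpin, and their median GC content was 44.7% against 47.3%. The hairpins of Mir341 and Mir181a-2 are shown with the mature arms in capitals, since the row of each gene carries the name of this whole unit:
Mir341: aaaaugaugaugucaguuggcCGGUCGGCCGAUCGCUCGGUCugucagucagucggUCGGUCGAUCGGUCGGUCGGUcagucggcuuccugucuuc
Mir181a-2: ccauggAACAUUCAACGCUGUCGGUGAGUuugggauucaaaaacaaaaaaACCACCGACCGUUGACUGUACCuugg

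Mir99b, of the conserved miR-99 family, measured 9.34, 9.02 and 9.14 in direct lysis and 7.98, 8.13 and 8.28 in PicoPure. All 6 values lay above background and the groups were well apart, an increase of 1.04 ± 0.11 with an adjusted p of 0.0124. It was lost without PicoPure replicate 1 or 2, at 0.0514 and 0.0717. Mir598 measured 11.32, 10.89 and 10.96 against 10.29, 10.30 and 10.31. Its PicoPure oocytes were almost identical, and the increase was 0.75 ± 0.11 with an adjusted p of 0.0359, up to 0.139 without PicoPure replicate 2. Mir341 measured 9.37, 9.15 and 9.03 against 8.47, 8.30 and 8.13, an increase of 0.89 ± 0.11 with an adjusted p of 0.0254, up to 0.107 without PicoPure replicate 2. Mir181a-2 measured 7.73, 7.93 and 7.35 in direct lysis, all above background, and 6.33, 6.71 and 6.60 in PicoPure, all under it. The increase was at least 1.36-fold against the background level, with an adjusted p of 0.0359, which was 0.124 without PicoPure replicate 1 and 0.305 when values were raised to background. Mir598, Mir341 and Mir181a-2 also lost their calls on leaving out any of the RNeasy arrays. Mir674, the next by p among those above background, measured 8.35, 8.53 and 8.36 against 7.86, 8.04 and 7.97 and did not pass, with an adjusted p of 0.105.

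The remaining called microRNA genes were dim. Mir382 measured 5.95, 6.46 and 5.91 against 4.71, 4.60 and 4.73, Mir543 5.90, 6.01 and 5.62 against 4.88, 4.73 and 5.13, and Mir154 4.56, 4.60 and 4.61 against 4.11, 4.05 and 4.09. Mir342 measured 7.13, 7.37 and 7.22 against 6.60, 6.37 and 6.34, with 1 direct lysis oocyte above background. Their adjusted p was 0.0104, 0.0309, 0.0217 and 0.0181, and no fold is given. When values were raised to the background level, none of these 4 genes kept its call.

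Mir341, Mir382, Mir543 and Mir154 lie in the imprinted region between Dlk1 and Dio3, whose large microRNA cluster is expressed from the maternal chromosome. This grouping was chosen after the values were seen. Of 40 microRNA genes measured there, 29 had a positive difference, their median was 0.11, and 4 were called, while 27 were above background on no array. For the other 256 microRNA genes the median was 0.06, with 165 positive and 4 called. Within the cluster Mir409 measured 6.81, 8.21 and 6.72 against 6.18, 6.24 and 6.13 without passing, with an adjusted p of 0.286, and Mir431 measured 7.66, 7.68 and 7.77 against 7.45, 7.44 and 7.49, with an adjusted p of 0.171. Other members above background went both ways, with Mir540 and Mir679 each at -0.24, Mir667 at 0.26 and Mir666 at 0.11. None of these passed the threshold.

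**Figure D4:**
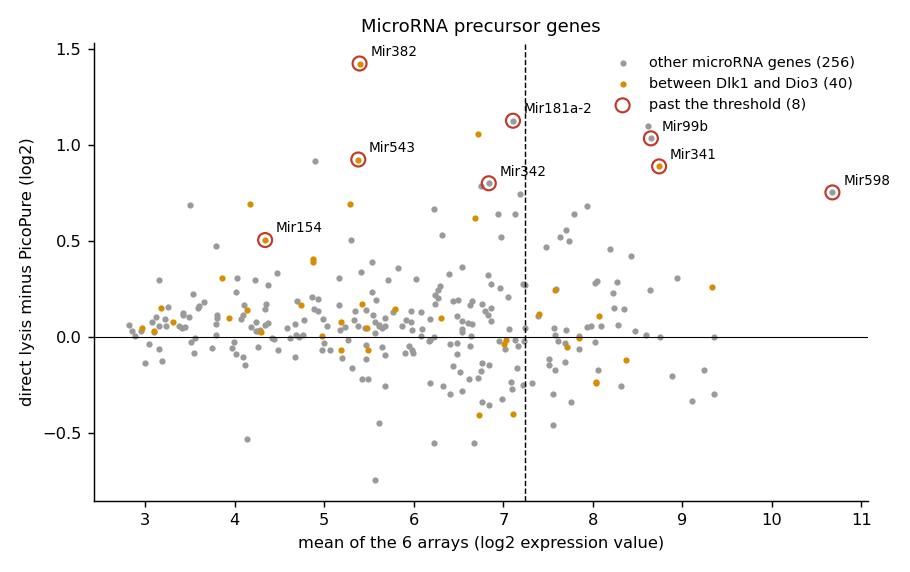
Difference between direct lysis and PicoPure (vertical axis, log2) against the mean of the 6 arrays (horizontal axis, log2 expression value) for 296 microRNA precursor genes, with the 40 between Dlk1 and Dio3 in orange, called genes circled and the mean background dashed. All 8 circled genes lie above 0, and Mir99b, Mir341 and Mir598 lie clearly to the right of background.

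Sox1, Pou3f2 and Nkx2-4, which encode transcription factors, were among the protein-coding genes with an increase. Sox1, a factor of neural progenitors, measured 9.22, 8.83 and 8.98 in direct lysis and 7.89, 7.84 and 8.20 in PicoPure, an increase of 1.03 ± 0.13 with an adjusted p of 0.0234. Pou3f2, another neural factor, measured 7.83, 7.49 and 7.90 against 6.69, 6.85 and 6.97. Its PicoPure oocytes were all under background, the increase was at least 1.42-fold, the adjusted p was 0.0256, and its other row differed by 0.01. The adjusted p was 0.113 when values were raised to background and 0.0517 for the mean of its rows, so neither kept the call. Nkx2-4, a homeobox gene, measured 8.55, 8.58 and 8.59 against 7.90, 7.84 and 7.90. The values of each group were close together, and the increase was 0.69 ± 0.06 with an adjusted p of 0.0088, lost only in the fit on the 6 arrays alone. Sox1 and Pou3f2 lost their calls without any RNeasy array, with adjusted p up to 0.0987 and 0.11 without PicoPure replicate 2.

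Olfr1029 belongs to the olfactory receptor family that served to set the background, and it lay under background in PicoPure at 6.53, 6.75 and 6.50. In direct lysis it measured 7.94, 8.25 and 7.79, an increase of at least 1.70-fold with an adjusted p of 0.0104 that was lost only in the fit on the 6 arrays alone. Of 1233 sensory receptor genes, 1 other was called, the vomeronasal pseudogene Vmn2r-ps104, which was lower at -0.95 ± 0.10 with an adjusted p of 0.0104, and 0.0615 without PicoPure replicate 2 and 0.0514 without PicoPure replicate 1. The family's median was 0.02.

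The other increases among the 15 largest with a direct lysis mean above background had adjusted p of 0.0254 to 0.0412. Try5, a trypsin gene, measured 8.55, 8.84 and 8.25 against 7.39, 7.47 and 7.34. Nt5m, a mitochondrial nucleotidase, measured 9.12, 9.04 and 8.91 against 8.33, 8.33 and 8.23. In both genes the lowest direct lysis oocyte lay well above the highest PicoPure oocyte. The prion-locus gene Prn and the predicted gene Gm13629 were under background in PicoPure and rose by at least 1.51-fold and 1.26-fold. The genes 5730408K05Rik and E430018J23Rik rose by 1.05 ± 0.15 and 0.81 ± 0.12. Each of these 6 genes lost its call without PicoPure replicate 2, and Gm13629 also when values were raised to background, at an adjusted p of 0.427.

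**Figure D5:**
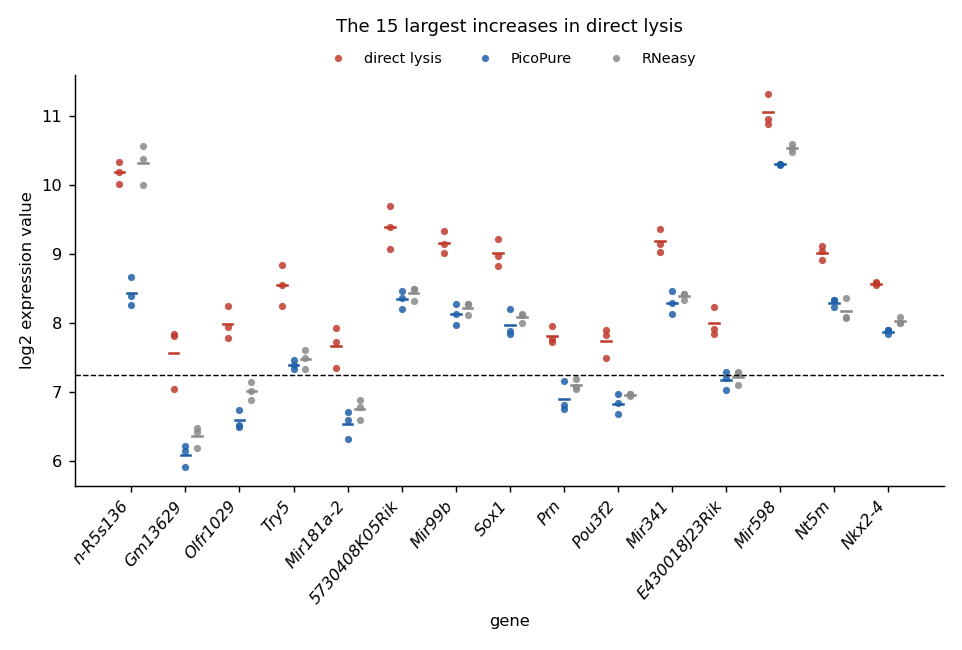
Log2 expression value of the 15 called genes with the largest increases in direct lysis whose direct lysis mean lay above background (red, 3 oocytes), beside PicoPure (blue, 3) and RNeasy (grey, 3); points are oocytes, bars are group means and the dashed line is the mean background. In n-R5s136 the RNeasy oocytes lie with direct lysis, and in the other genes they lie nearer to PicoPure.

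Markers of other cells that could cling to an oocyte did not pass the test. As 0.597% of all genes were called, 0 calls does not set apart any of the lists that follow. Of 34 cumulus and granulosa cell genes, 8 exceeded background on every one of the 6 arrays and 24 did so on no array. The array medians of this list ran from 6.90 to 6.95 in direct lysis and from 6.82 to 6.93 in PicoPure, under the background level in both. Its median difference was 0.07, and Foxl2, a granulosa cell factor, differed by 0.29 ± 0.14 (adjusted p 0.47). The 17 blood and immune cell genes and the 20 oviduct genes each had a median of 0.06 and 0 calls. The 137 keratin, skin and milk protein genes, a check for handling, had a median of 0.08 and 0 calls, with 14 members higher and 1 lower at an unadjusted p under 0.05, where 6.37% of all genes were higher and 5.91% lower. Immediate early and stress genes, 28 in number, had a median of 0.07, with Jund at 0.55 ± 0.11 and an adjusted p of 0.0894. The 11 histone genes and the 17 zygotic activation genes gave 0 calls and medians of 0.00 and -0.02.

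The number of genes above background did not separate the preparations. Direct lysis oocytes had 11443, 10662 and 11227 genes above background, and PicoPure oocytes had 11106, 11006 and 11058. The PicoPure counts lay inside the range of the direct lysis counts. The means were 11111 ± 403 (SD, n = 3) and 11057 ± 50 (SD, n = 3), a difference of 54.0 with an exact two-sided permutation p of 0.9 over 20 splits, where 0.1 is the smallest p possible. A set of 36 genes was above background on all PicoPure arrays and on no direct lysis array, of which 4 were called. The opposite pattern was found in 56 genes, of which 7 were called.

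Direct lysis oocytes differed more among themselves than PicoPure oocytes. The median SD over genes of the 3 oocytes was 0.146 in direct lysis and 0.108 in PicoPure, and the SD was larger in direct lysis for 12207 genes, or 61.2%. Between levels of 9 and 11, where most decreases lay, the median SD was 0.290 against 0.199. Among the 85 lower genes it was 0.203 against 0.121, larger in direct lysis for 59 of them. The difference in median SD was 0.0377, and no test was made because the 3 values of a group share their mean. Leaving out an array sets an SD over 2 oocytes against one over 3, which lowers the shortened group by construction, so it does not show which oocyte carries the difference.

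Lone low values in a single oocyte were seen in both groups. A lone low value was counted where 1 oocyte lay at least 1 log2 unit under both others of its group and those were above background. Direct lysis oocytes had 131, 111 and 131 such genes, and PicoPure oocytes had 42, 69 and 137. The widest gap was in PicoPure: Hormad1, a meiotic chromosome axis gene, measured 4.44 in PicoPure replicate 1 and 10.15 and 10.16 in the others, and its second row was low in the same oocyte, at 6.89 against 9.80 and 9.90. In direct lysis the widest gap was in Exd1, a gene of the piRNA pathway, at 6.55 in replicate 2 and 10.43 and 10.86 in the others. Its PicoPure oocytes read 10.74, 10.52 and 10.80. The spindle gene Mzt1 measured 6.63, 7.14 and 10.02 in direct lysis and 10.70, 11.69 and 6.71 in PicoPure, low in some oocytes of each preparation. This belonged to 1 array row: the second row of Mzt1 read 8.53, 8.07 and 8.37 against 9.69, 9.23 and 8.68, with no gap of that size. Cox17, a copper chaperone for the respiratory chain, was likewise low in some oocytes of each preparation. It measured 5.89, 7.30 and 10.20 against 8.94, 9.02 and 6.24. Further such genes were Dapl1 and Fam185a in direct lysis replicate 2, Pde4d and Dscc1 in direct lysis replicate 1, and Spink2 and Fam3b in PicoPure replicate 1. Some of these were low in the other preparation too. Pde4d read 6.24 in PicoPure replicate 1 against 9.23 and 10.85, and Dscc1 7.81 in PicoPure replicate 2 against 9.16 and 9.41. Spink2 read 7.64 in direct lysis replicate 2 against 10.08 and 10.55. The second row of Pde4d, at 8.50, 8.78 and 8.76 in direct lysis, held no lone low value. None of these genes passed the test between the groups, and their adjusted p ran from 0.547 to 0.993.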

How the data were processed

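The deposited table holds the authors' log2 expression values, with 35556 rows, 9 arrays and 0 gaps. The tools named are GCRMA, GCOS and Affymetrix Expression Console, without version or order, per the submitters' processing notes. The scale was read as log2 from the values. Scanner files were not used, and no source used here gives a genome build. Rows with several gene symbols (1621) or none (12146) were left out of the gene tests. RefSeq (GRCm38.p6) gave gene types, neighbours and sequences only.

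The test was limma's (version 3.58.1, lmFit and eBayes, under R 4.3.3), with 3 groups over 9 arrays with 6 residual degrees of freedom, direct lysis minus PicoPure, two-sided, adjusted by Benjamini-Hochberg over 19938 genes, threshold 0.05. No set test was run. A fold against a group under background was taken to the background level. On simulated data limma recovered 78% of changes of 1 log2 unit and 93% of changes of 2, with 11 false calls. These rates hold for the simulated noise only. They are not the power of the real comparison, where the groups differed in spread (median SD 0.146 in direct lysis and 0.108 in PicoPure).

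The members and gene lists were chosen with earlier results of these data known. Named genes were the 15 largest differences each way among called genes with no overlap of the groups and a higher group above background. Called list members were added (for lists of over 100, the 5 with the smallest p), with up to 3 members per list by p. An oocyte panel and the 3 widest lone low values per array completed the set. Alternatives changed the normalization, row choice, samples fitted, background level, filter, variance model and arrays included.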

Additional observations from a re-analysis of the deposited data

Results flagged for a closer look

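In 3 called genes the differences of direct lysis from PicoPure and from RNeasy were unlike, tested as PicoPure minus RNeasy in the same fit. For n-R5s136, the 5S ribosomal RNA gene, PicoPure minus RNeasy was -1.87 with an adjusted p of 0.0165. For Nicn1 it was 1.52 with an adjusted p of 0.0207. Nicn1 measured 8.21, 8.36 and 8.13 in direct lysis, 9.57, 9.12 and 9.03 in PicoPure and 7.55, 7.88 and 7.71 in RNeasy, so PicoPure was the highest. For Nfatc2ip the fitted value was 0.93 with an adjusted p of 0.0422, but its direct lysis and RNeasy oocytes were under background, so this is no measured fold. Nicn1 and Nfatc2ip were chosen after their values were seen.

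Rows with no gene symbol were outside the gene comparison. In a fit over all rows, 65 of the 12146 such rows were higher in direct lysis and 26 were lower, and 42 of the higher rows lay above background on all 3 direct lysis arrays. Among rows with 1 symbol, 28 were higher and 75 were lower. What the unnamed rows measure was not tested.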

How the results depend on the processing

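Counts of called genes moved with the processing. No called gene changed direction, but leaving out an array or refitting the same values could not have changed it in groups that do not overlap. A further quantile normalization gave 73 calls, 42 of them lower. The fit on the 6 arrays alone gave 0, 0 higher and 0 lower, with 2158 genes at an unadjusted p under 0.05. All rows of the table gave 198 calls, 96 higher and 102 lower. Median centring, the filter, raised values, row means and the other variance model gave 113 to 144. Leaving out each array in turn gave 14 to 123 calls, 2 to 25 higher and 12 to 99 lower. Of the 119 called genes, 83 lost their call in most of the 16 or 17 alternatives, 9 only in the fit on the 6 arrays alone, and 0 in none. The replicate block, in which same-numbered oocytes are paired, gave 17 calls, 3 higher and 14 lower, all among the 119. Deviations of same-numbered direct lysis and PicoPure oocytes correlated at r from -0.039 to 0.063 across genes. Over all 9 same-numbered pairs of the 3 groups r ran from -0.089 to 0.134. Low values do not exclude a shared mouse, which the labels do not give, so whether the pairing is real was not settled.

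The difference in detected genes was -66.0 with the 99th percentile as background and ran from -112 to 278 leaving out arrays, negative without direct lysis replicate 1 (-112) or 3 (-4.17). The difference in median SD was 0.0455 after quantile normalization, 0.0453 after median centring, 0.0202 with raised values, 0.0541 with the filter, and from -0.00219 (without direct lysis replicate 2) to 0.0735 leaving out arrays, which lowers the SD of the shortened group by construction. The mean lone low count differed by 194.7 at a gap of 0.5 and by 1.3 at a gap of 2. The cause of the other shifts was not tested.

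Genes that were not called changed sign leaving out arrays. The ranges were -0.12 to 0.15 for Actb, -0.11 to 0.04 for COX2, -0.14 to 0.04 for ND3, -0.03 to 0.08 for Npm2, -1.47 to 0.68 for Cox17, -1.15 to 0.59 for Fam185a, -0.81 to 1.27 for Fam3b, -0.93 to 1.93 for Hormad1, -1.40 to 0.90 for Pde4d and -1.35 to 0.93 for Spink2, which was -0.15 with raised values. These 10 genes have no settled direction in these arrays, and rows under background give no fold.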

Other observations

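Other called genes, chosen here after their values were seen, covered chromosome and nucleotide functions. Wapl, which releases cohesin from chromosomes, measured 11.10, 10.75 and 11.14 in direct lysis and 12.02, 11.95 and 11.89 in PicoPure, with an adjusted p of 0.0153. Smc6, of the Smc5/6 complex, fell by 0.75 on the log2 scale and the helicase gene Wrn fell by 1.57, with adjusted p of 0.0412 and 0.0486. Dut, which removes dUTP, measured 7.23, 7.10 and 7.92 against 8.95, 9.17 and 8.77, and the ribonucleotide reductase gene Rrm2b fell by 0.99. Tfdp1, the partner of E2F factors, measured 9.42, 9.45 and 9.85 against 10.83, 10.81 and 10.81, with an adjusted p of 0.0104. Ssr3, of the endoplasmic reticulum translocon, fell by 1.5 with an adjusted p of 0.0104, and the outer mitochondrial membrane channel gene Vdac2 fell by 1.11 with an adjusted p of 0.0291. Against RNeasy, direct lysis differed by -1.91 for Ssr3 and -1.65 for Vdac2. Of 17 alternatives, the call was lost in 1 for Ssr3 (the fit on the 6 arrays alone), 4 for Tfdp1, 5 for Wapl, 10 for Dut and Smc6, 11 for Rrm2b and Vdac2, and 12 for Wrn. Leaving out PicoPure replicate 2 ended the call of each of these genes except Ssr3.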
